A study of Mus musculus with 6 samples.

Results

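The regions described here were called as open chromatin in both Myc libraries and in no other library of an Omni-ATAC-Seq experiment on hearts of newborn mice. They were chosen by their peak calls: the intervals of all 6 peak lists were merged, and a merged region was kept when it overlapped a peak of Myc 1 and of Myc 2 and no peak of the 4 Input and PCM1 libraries. Of 169872 merged regions, 3132 met this rule, which is 1.84% of all regions tested. They are called Myc-only regions below. Their presence in Myc and absence elsewhere was the criterion of choice and not a result, so it carries no test.

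All 6 libraries were made from 50000 nuclei each, taken from hearts at postnatal day 1 and spun through a 2.2 M sucrose cushion. The Myc libraries came from Nkx2-5 Cre/+; R26RSun1-Myc-Egfp/+ hearts, in which Cre made under the control of Nkx2-5, a transcription factor gene of the cardiac lineage, turns on a Myc-tagged SUN1 protein of the nuclear envelope, and tagged nuclei were pulled down with a Myc antibody on magnetic beads (MAN-IP). The PCM1 libraries came from wild-type hearts by MAN-IP for PCM1, a protein found around cardiomyocyte nuclei, and the Input libraries hold wild-type nuclei of the cushion without any pull-down. Each group has 2 biological replicates. Genotype, antibody and group moved together, because by the labels no tagged heart gave an Input or PCM1 library and no wild-type heart gave a Myc library, so their parts in a difference cannot be told apart. The Cre marks cells by their Nkx2-5 lineage and not by one cell type, and the labels give neither the sex of the hearts nor how many were pooled.

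In ATAC-seq a transposase inserts adapters wherever DNA is not covered by nucleosomes, and a peak is a stretch where insertions pile up above the local background. Open regions are mainly promoters, where transcription starts, and enhancers, which lie in introns or between genes and carry short binding words of the transcription factors of a cell type. In heart muscle these include GATA4, MEF2 and NKX2-5, whereas fibroblasts, endothelial cells and smooth muscle cells open enhancers of their own. CTCF binds a longer word at insulators and at anchors of chromatin loops in most cell types. A peak list gives the position and strength of open regions but not which cells they came from, so fewer nuclei of a type and less open chromatin per nucleus cannot be told apart in such data.

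Sequences at the summits of the strongest Myc-only regions are given first. Regions were ordered by their rank percentile in the weaker Myc library, where 100 is the peak with the lowest q-value of the library and 0 the one with the highest. The 6 lines are 150 bases of the plus strand around the summit, from the mouse reference GRCm38 (mm10), for the introns and intergenic sites among the 10 highest. Windows that touch an exon or a promoter are not shown. The window in an intron of Exoc3l near 4931428F04Rik was left out for this reason, and it held the CTCF word. In this and later sets, capitals mark a match on either strand to one of 6 words, which are TAAAAATA for MEF2, AGATAA for GATA factors, TGAGTCA for AP-1, TAATTA for homeobox factors, CAGCTG for E-box factors and ACNAGGNGG for CTCF, unless another meaning is given. None of these 6 windows had an exact match, so they are in lower case throughout. Other forms of the factors' sites were not searched for, so a window without a match may still hold a site.
Upstream of Hes7: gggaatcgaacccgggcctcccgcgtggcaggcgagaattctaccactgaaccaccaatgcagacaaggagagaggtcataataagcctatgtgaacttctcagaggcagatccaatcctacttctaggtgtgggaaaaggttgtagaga
Intron of Hnrnpl: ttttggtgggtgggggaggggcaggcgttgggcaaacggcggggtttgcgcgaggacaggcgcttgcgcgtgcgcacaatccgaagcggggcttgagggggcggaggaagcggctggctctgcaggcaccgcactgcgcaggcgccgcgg
Past the end of Firre: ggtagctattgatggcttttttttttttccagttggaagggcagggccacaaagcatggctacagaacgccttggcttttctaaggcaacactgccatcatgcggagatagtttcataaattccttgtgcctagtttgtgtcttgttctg
Intron of Mctp2: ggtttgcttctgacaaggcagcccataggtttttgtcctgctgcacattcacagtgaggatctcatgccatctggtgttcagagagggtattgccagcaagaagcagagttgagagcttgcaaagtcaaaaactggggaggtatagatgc
Intron of Sema3d: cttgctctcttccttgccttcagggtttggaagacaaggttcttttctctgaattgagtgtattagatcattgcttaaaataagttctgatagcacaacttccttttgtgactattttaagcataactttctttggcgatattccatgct
Upstream of Ccdc69: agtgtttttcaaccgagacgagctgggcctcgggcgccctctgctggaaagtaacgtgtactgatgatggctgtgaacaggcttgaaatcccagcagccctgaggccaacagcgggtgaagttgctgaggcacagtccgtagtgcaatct

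The highest-ranked Myc-only region lay at chr11:69118722-69119029, 1525 bp upstream of Hes7, a transcriptional repressor of the segmentation clock. It had rank percentile 82.3 in Myc 1 and 76.9 in Myc 2, with pileups of 103 and 85 overlapping fragments at the summit. This region holds the tRNA gene that is described further on. The next, chr7:28811216-28811550, lay in an intron of Hnrnpl, a gene of a splicing regulator, with rank percentiles of 77.1 and 73.7. Both sat in strong surroundings, with a local background of 16.6 and 14.96 fragments at Hes7 and of 32.3 and 36.7 at Hnrnpl, and the nearest peak of another library was 471 bp and 179 bp away. The third, chrX:50549804-50550124, lay on a quiet background of 1.44 and 1.60 fragments, had rank percentiles of 71.6 and 71.1, and was 10836 bp from any peak of another library. Introns of Mctp2 (chr7:72238647-72238934, 66.8 and 66.6) and of Sema3d, a semaphorin gene (chr5:12467573-12468255, 65.9 and 67.2), also lay on a quiet background, with fold enrichments of 10.7 to 11.1, and were 1128 bp and 31482 bp from the nearest peak of another library. An exon of S1pr1, a sphingosine-1-phosphate receptor gene (69.4 and 75.3), an exon of Cyp2s1 (67.2 and 69.6), a site 9074 bp upstream of Ccdc69 (65.5 and 65.4), the promoter of Tcam1 (66.6 and 64.5) and an intron of Exoc3l near 4931428F04Rik (64.0 and 69.2) completed the 10.

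Depth differed between the libraries and bears on every call. The genome-wide background solved from the peak values, which stands for depth, was 1.44 in both Myc libraries, 3.96 in Input 1, 1.02 in Input 2 and 0.977 and 0.903 in PCM1, and the lists held between 75336 and 131500 peaks. Where a library had no peak, none was detectable by this caller at its depth. Cardiomyocyte markers had a peak within 1 kb of the TSS for 9 to 11 of 12 genes in every library. Fibroblast markers had one for 11 and 11 of 12 genes in Myc, 11 and 8 in Input, and 8 and 7 in PCM1. Lower counts in Input 2 and PCM1 were not particular to this list. Wnt genes had 12 and 12 in Myc, 12 and 10 in Input, and 9 and 10 in PCM1. Endothelial and endocardial markers had 10 and 10, 10 and 8, and 8 and 9. Mitosis and cytokinesis genes, by contrast, had 12 of 12 in every library.

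The Myc pair was not the largest group of regions shared by exactly 2 libraries. Of the 15 pairs, Input 1 with Myc 2 had 5124 regions and Input 1 with Myc 1 had 4923, and the Myc pair followed. Regions shared by both Input libraries only numbered 1837, or 1.08% of all merged regions, and those of both PCM1 libraries only 431, or 0.254%. Among the 83600 regions called in both Myc libraries, the Myc-only regions made up 3.75%. Another 8516 had a peak in exactly 1 other library, which was Input 1 for 7528 of them, and 48861 were called in all 6 libraries. Myc 1 alone called 9321 regions and Myc 2 alone 9248, so regions of a single Myc library were about as frequent in either replicate and outnumbered those of the pair.

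**Figure D1:**
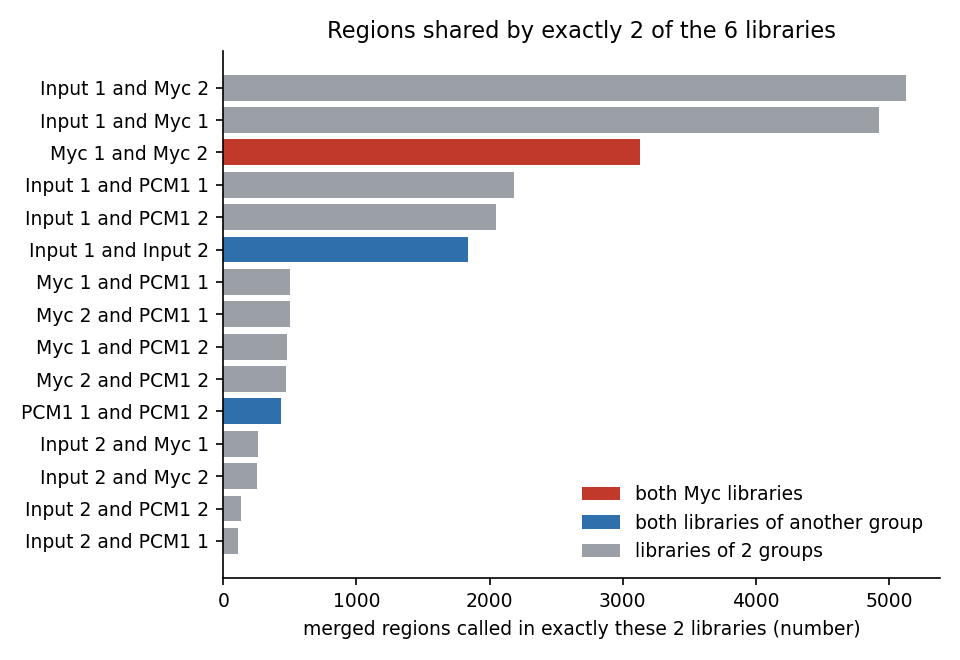
Merged regions called in exactly 2 of the 6 libraries, 1 bar per pair, with the number of regions on the horizontal axis. The Myc pair, in red, has 3132 regions and stands below both pairs of Input 1 with a Myc library (5124 and 4923) and above the Input pair (1837) and the PCM1 pair (431), in blue.

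Most Myc-only regions were weak peaks. The median rank percentile was 23.8 in Myc 1, with quartiles of 14.3 and 36.9, and 23.4 in Myc 2, with quartiles of 12.2 and 36.4. The median fold enrichment was 4.68 and 4.75 and the median pileup 13 fragments in each. Regions of both Myc libraries that also had a peak in exactly 1 other library stood higher, at medians of 32.1 and 31.6, and regions of all 6 libraries at 76.2 and 76.6. Of the Myc-only regions, 94 were at or above the 50th percentile in both Myc libraries, whereas 1041 were below the 10th in the weaker of the pair. As these values chose the regions, they describe them and test nothing.

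The replicates placed the same regions at similar positions but ranked them differently. The summits of Myc 1 and Myc 2 were a median of 32 bp apart, and 66.1% were within 50 bp. Across the 3132 regions, which share the pair of libraries and a narrow range of ranks, Spearman's rho of the rank percentiles was 0.391, beside 0.875 over the 80468 other regions of both Myc libraries. The regions were 304 bp long at the median, from 200 to 1022 bp, and covered 1.35% of the length of all merged regions.

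**Figure D2:**
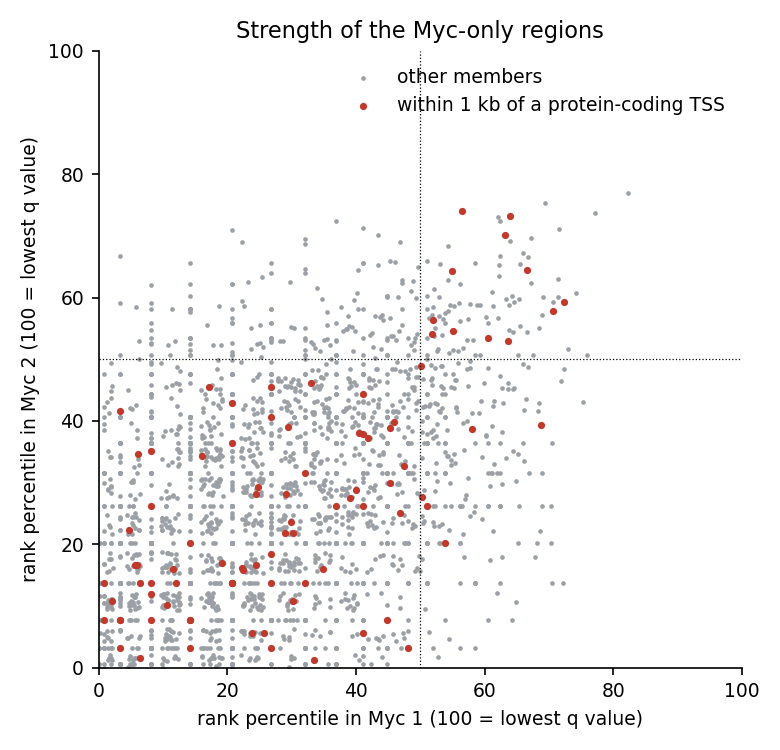
Rank percentile of each of the 3132 Myc-only regions in Myc 1 (horizontal axis) and Myc 2 (vertical axis), where 100 is the lowest q-value of a library and red points are regions within 1 kb of a protein-coding TSS. The cloud lies mostly below the dotted lines at 50, and 94 regions are at or above 50 in both libraries.

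At the edge of the rule, the weakest Myc-only region, in an intron of Zfp608, had rank percentiles of 10.1 and 0.00184 and a −log10 q-value of 1.34 in Myc 2. Just outside it, the lowest peak that kept a region out was at rank percentile 0.0144 in Input 1, 0.0597 in Input 2, 0.136 in PCM1 1 and 0.165 in PCM1 2. The regions kept out by Input 1 alone had a median rank percentile of 34.2 in that library and of 23.6 in their weaker Myc library, beside 14.3 for the Myc-only regions.

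To see whether a site of the strength found in Myc would have been called elsewhere, the pileup of the weaker Myc library was multiplied by the ratio of the backgrounds and set against the smallest pileup called in the other library. In Input 1, the deepest library, the scaled pileup had a median of 30.3 against a limit of 11, and all 3132 regions were at or above the limit. That outcome was fixed in advance, since the lowest pileup of a Myc-only region, 6 fragments, already scaled to 16.5 there. In Input 2, 2677 regions (85.5%) reached the limit of 6, and in each PCM1 library 3006 (96.0%) reached the limit of 5. For 2677 regions (85.5%) the scaled pileup reached the limit of all 4 libraries. With the local background scaled as well, a setting chosen after seeing the data, 2569 regions (82.0%) did so. These are values of the peaks that were selected on being called in Myc, so a part of their height is the selection itself, and its size was not tested.

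The call depended on how many peaks each list held. When each list was cut to its 75336 strongest peaks, 2321 regions were Myc-only, but 645 of them were among the 3132, which is 27.8% of the former and 20.6% of the latter. Without Input 1 the number rose to 10776, and without any one of the other Input and PCM1 libraries it was 3389 to 3507. Without Myc 1 or Myc 2 the rule needs 1 Myc call, and 12481 and 12545 regions met it.

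Myc-only regions lay far from promoters. Within 1 kb of the TSS of a protein-coding gene were 90 regions (2.87%), beside 8.64% of all merged regions, 1.91% of Input-only, 3.48% of PCM1-only and 22.6% of regions of all 6 libraries. The median distance to the nearest protein-coding TSS was 46.5 kb, beside 35.6 kb for all merged regions, 39.5 kb for Input-only and 35.2 kb for PCM1-only. Introns held 43.6%, exons 3.45%, genes of other types 8.30%, and 41.8% were intergenic, where all merged regions had 33.7%. A share of 30.4% was more than 100 kb from a TSS, beside 24.1% of all merged regions. With the summits of Myc 1 or of Myc 2 alone, the share within 1 kb was 2.87% and 2.91%, so the replicates gave nearly the same value. These shares are descriptions, since regions are not replicates and all come from the same pair of libraries.

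The nearest peak of any Input or PCM1 library was a median of 3825 bp away. It was within 200 bp for 141 regions and within 1 kb for 654 (20.9%), so about 1 in 5 Myc-only regions flanked an open site of the other groups. By contrast, 728 regions were more than 10 kb and 41 more than 100 kb from any such peak. These distances were not measured for other sets of regions, so they are not shown to be particular to the Myc-only regions.

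The 8 promoter regions of highest rank were at Tcam1, Mttp, Ttc23, Sox12, Sp2, Sf1, Exo5 and Sema6a. At Mttp, a gene of lipoprotein assembly, the summit was 95 bp upstream of the TSS and inside Trmt10a, with rank percentiles of 63.9 and 73.2. At Ttc23 the summit was 50 bp upstream (63.2 and 70.1), and at Sox12, a transcription factor gene, 737 bp downstream (72.3 and 59.3). Sp2, a zinc finger factor gene (70.7 and 57.8), and Sf1, a splicing factor gene (56.5 and 74.1), held their regions 369 and 820 bp downstream of the TSS. At Sf1 and Sox12 a peak of another library began 75 and 231 bp away, and local backgrounds were 27.4 to 36.0 fragments, whereas at Tcam1 and Sp2 the nearest such peak was 3131 and 4231 bp away. Exo5 and Sema6a had regions 587 and 987 bp upstream, with rank percentiles of 54.6 to 64.3.

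Myc-only regions were poorer in G and C than the sets they were compared with. In 300 bp around the summit the median GC content was 44.7%, with 44.3% at Myc 1 summits and 44.7% at Myc 2 summits. All merged regions had 49.3%, Input-only regions 49.7%, PCM1-only regions 50.7% and regions of all 6 libraries 53.3%. Windows with a GC content under 40% made up 23.0% of the Myc-only regions, 5.42% of all merged regions, 2.78% of Input-only and 1.16% of PCM1-only. Soft-masked bases, which mark repeats in the reference, made up 15.6% of a window on average, beside 11.6%. The low GC content was shared by regions called in a single Myc library, at 45.7% for Myc 1 alone and 46.0% for Myc 2 alone, while regions of any single Input or PCM1 library had 48.3 to 49.0%. Over all peaks the lists were closer, with medians of 50% in both Myc libraries and 50.3 to 51.7% in the others. Library preparation and PCR were not measured in these files, and their part in the GC difference was not tested.

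Searched words were both more and less frequent in Myc-only windows than in all merged regions. Of 26 words, the homeobox word TAATTA had the highest ratio to all merged regions, at 8.91% of Myc-only windows against 5.19%, followed by the MEF2 word TAAAAATA at 7.57% against 4.75% and the CTCF word ACNAGGNGG at 7.28% against 5.48%. At the other end, the SP/KLF word GGGCGG was in 6.35% against 13.5%, the E2F word TTCCCGC in 1.28% against 2.06%, the E-box CAGCTG in 19.5% against 25.2% and the MEIS word TGACAG in 21.4% against 26.4%. The NKX2-5 word TNAAGTG was in 15.9% of both, the GATA word AGATAA in 18.6% against 17.1% and the AP-1 word TGAGTCA in 9.32% against 8.60%. Words were matched exactly on both strands, the homeobox and MEF2 words can overlap in AT-rich stretches, and a match is a string of letters and not a bound site.

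Within windows of like GC content, the MEF2 and homeobox shares were closer to those of all merged regions below 50% GC, while the CTCF share was higher below 60% GC. For windows under 40% GC, the MEF2 word was in 15.3% of Myc-only and 15.9% of all merged regions, and the homeobox word in 17.1% and 15.2%. From 40 to 50% GC the values were 6.70% and 6.35% for MEF2, and 7.30% and 6.82% for homeobox. From 50 to 60% GC they were 1.13% and 2.25% for MEF2, from 6 Myc-only windows, and 4.51% and 2.87% for homeobox, from 24. The CTCF word was in 9.74% and 5.36% under 40% GC, in 6.47% and 4.77% from 40 to 50%, and in 6.95% and 6.08% from 50 to 60%. At 60% or more, with 74 Myc-only regions, it was in 5.41% and 6.62%.

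For other words, the comparison over all windows and that within GC classes differed in direction or size. The GATA word, more frequent in Myc-only windows over all classes, was less frequent within each. It was in 27.1% and 28.9% under 40% GC and in 17.7% and 21.99% from 40 to 50%. From 50 to 60% the values were close, at 12.6% and 12.98%. At 60% or more they were 1.35%, from 1 Myc-only window, and 2.80%. The NKX2-5 word, equal over all windows, was in 17.4% and 20.6%, 16.9% and 19.3%, and 11.8% and 13.7% in the 3 classes below 60% GC, and in 5.41% and 5.30% at 60% or more. Input-only regions held it in 20.6% and PCM1-only regions in 10.7%. The lower SP/KLF and E2F shares over all windows were not found from 40 to 60% GC, where SP/KLF was in 4.70% and 3.78%, then 13.3% and 13.1%, and E2F in 0.996% and 0.855%, then 2.07% and 2.07%. At 60% or more, SP/KLF was in 51.4% and 69.6%, and E2F in 12.2%, from 9 Myc-only windows, and 8.88%. The CAGCTG and MEIS words stayed less frequent in every class, with 19.9% and 21.9% for CAGCTG and 22.7% and 27.4% for MEIS from 40 to 50% GC.

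**Figure D3:**
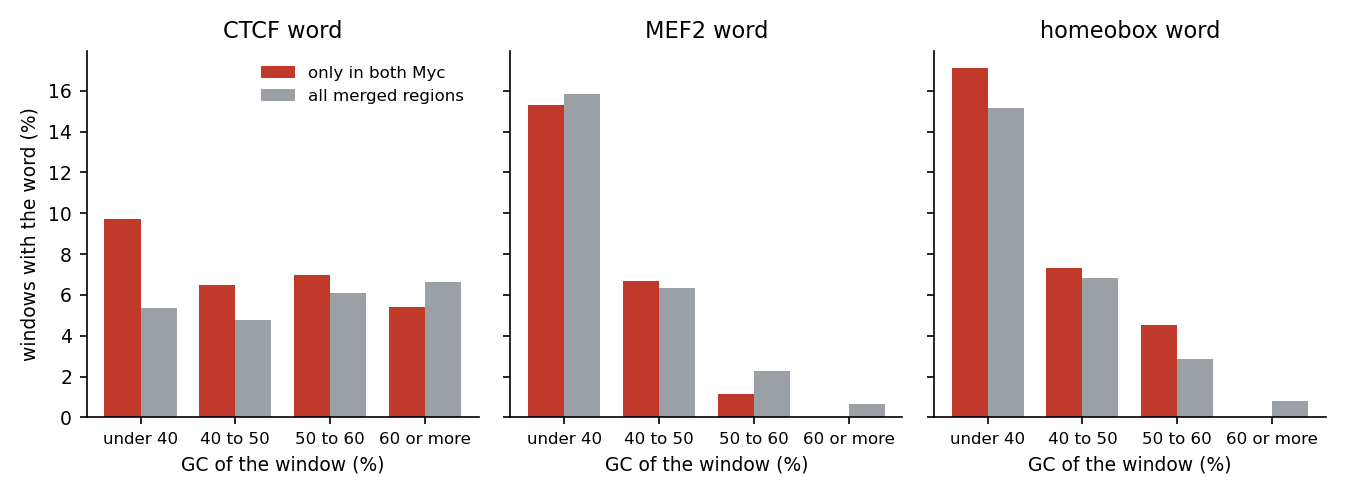
Share of 300 bp windows with the CTCF, MEF2 or homeobox word (vertical axis, %) in 4 classes of GC content (horizontal axis), for Myc-only regions in red and all merged regions in grey. The MEF2 and homeobox bars of both sets are near each other below 50% GC, and the CTCF bar of the Myc-only regions is higher below 60% GC, most of all under 40% (9.74% against 5.36%).

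Within the Myc-only regions, the CTCF word also went with the strength of the region. When the Myc-only regions were divided into 3 equal parts of 1044 by the rank percentile in the weaker Myc library, it was in 4.60% of the lowest, 6.23% of the middle and 11.02% of the highest part. Input-only regions held it in 3.70% and PCM1-only regions in 3.48%, and regions of all 6 libraries in 6.46%. Leaving out chromosome X, the highest part had 10.7%. With the strongest 75336 peaks of each list, the share was 11.1% of the 2321 Myc-only regions then found, beside 6.15% of all merged regions. In regions called in Myc 2 and no other library when Myc 1 was left out, it was 4.98% beside 5.49%, and with Myc 2 left out 5.28% beside 5.53%, so in these settings, which need a call in 1 Myc library only, the share was not higher than in all merged regions. The MEF2 share went the other way across the 3 parts, at 8.24%, 7.38% and 7.09%. No other set of regions was divided by rank, so these trends are not shown to be particular to the Myc-only regions.

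Some of the highest-ranked Myc-only regions lay over transfer RNA (tRNA) genes. tRNA genes are short genes read by RNA polymerase III from a promoter inside the gene, and many are present in several copies. Of the 3132 Myc-only regions, 10 (0.319%) overlapped 1 of the 403 tRNA genes that RefSeq places on the assembled chromosomes. Among all merged regions 176 (0.104%) did so, and among the regions of all 6 libraries the share was 0.207%. It was 0 of 1837 Input-only and 0 of 431 PCM1-only regions. At a share of 0.104% few would be met in sets of that size, so these absences show little. Of the 10 Myc-only regions, the 3 of highest rank in the weaker Myc library are given as 150 bases of the plus strand centred on the gene, with the tRNA gene in capitals. All 3 genes lie on the minus strand. They are n-TGgcc5 for tRNA-Gly at chr11:69118794-69118864, within the region upstream of Hes7, n-TWcca6 for tRNA-Trp at chr11:69063495-69063566, and n-TRtcg1 for tRNA-Arg at chr13:23526456-23526528.
n-TGgcc5: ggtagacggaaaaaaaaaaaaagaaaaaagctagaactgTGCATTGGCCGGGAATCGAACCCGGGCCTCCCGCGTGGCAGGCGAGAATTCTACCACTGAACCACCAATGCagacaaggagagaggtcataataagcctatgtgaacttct
n-TWcca6: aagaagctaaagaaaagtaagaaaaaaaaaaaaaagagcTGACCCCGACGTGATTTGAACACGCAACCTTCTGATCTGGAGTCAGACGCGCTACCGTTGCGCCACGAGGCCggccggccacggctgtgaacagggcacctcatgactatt
n-TRtcg1: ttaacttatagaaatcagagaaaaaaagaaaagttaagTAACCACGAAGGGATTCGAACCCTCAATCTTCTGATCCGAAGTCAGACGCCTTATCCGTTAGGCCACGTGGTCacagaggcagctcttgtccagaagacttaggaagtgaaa

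These 3 regions had rank percentiles of 82.3 and 76.9, 62.3 and 65.3, and 65.5 and 55.5 in Myc 1 and Myc 2. The other 7 were over genes of tRNA-Ala (4 regions), tRNA-Met, tRNA-Leu and tRNA-Gly. Of all 10, 6 lay on chromosome 13 and 2 on chromosome 11. The weakest, over n-TAagc18 for tRNA-Ala, was at 3.29 and 3.19. A peak overlapped 196 and 204 of the 403 tRNA genes in Myc, 192 and 146 in Input and 128 and 134 in PCM1, so Myc covered slightly more of them than the deeper Input 1. In 6 of the 10 regions the tRNA gene has a sequence that other tRNA genes share exactly, up to 8 genes for tRNA-Gly, so that reads inside the gene can belong to any copy, and the effect of the authors' mapping on these peaks was not tested. When regions within 200 bp were merged, 6 Myc-only regions held a tRNA gene, and without Input 1 the number was 25, without Myc 1 or Myc 2 16 each (settings chosen after seeing the data).

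A dense group of Myc-only regions lay at Firre, a long noncoding RNA gene of chromosome X that is built from tandem repeats and binds CTCF. Firre, at chrX:50555744-50635321 on the minus strand, held 25 merged regions, of which 7 (28.0%) were Myc-only. Myc 1 called 17 of the 25 regions and Myc 2 called 22, beside 7 and 2 in the Input libraries and 10 and 7 in PCM1, so that Input 1, at 2.75 times the depth of Myc 1, called fewer than either Myc library. The promoter region of Firre was called in all 6 libraries, at rank percentiles from 78.4 to 94.5. The Myc-only regions were all inside the gene, between 12.2 and 68.8 kb from its start, with rank percentiles of 18.3 to 61.3 in Myc 1 and 22.2 to 57.6 in Myc 2. The strong region past the end of Firre, shown above, and a further one gave the 9 Myc-only regions of the stretch from 50 to 51 Mb of chromosome X, out of 37 merged regions there.

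Of the 7 Myc-only regions within Firre, 5 resembled each other in sequence. All 10 pairs among these 5 aligned over 167 to 301 bp with 80.5 to 87.1% identity, and none of the other 11 pairs gave an alignment. The 150 bases of the plus strand around the summit are given for 4 of them to show the repeat, with capitals for a run of 12 bases that these 4 windows had in common. None of the 7 windows of 300 bp held the CTCF word.
Firre 1, chrX:50566410-50566906: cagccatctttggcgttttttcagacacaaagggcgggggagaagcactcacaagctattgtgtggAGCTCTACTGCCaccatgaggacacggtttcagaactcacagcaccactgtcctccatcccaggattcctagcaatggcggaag
Firre 2, chrX:50572227-50572505: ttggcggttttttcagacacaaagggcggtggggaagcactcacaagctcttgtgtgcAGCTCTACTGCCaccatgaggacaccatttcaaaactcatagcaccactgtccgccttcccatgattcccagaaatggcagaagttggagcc
Firre 3, chrX:50576918-50577401: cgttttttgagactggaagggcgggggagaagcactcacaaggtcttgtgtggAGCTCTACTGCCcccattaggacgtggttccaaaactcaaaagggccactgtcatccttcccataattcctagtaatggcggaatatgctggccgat
Firre 4, chrX:50590668-50591226: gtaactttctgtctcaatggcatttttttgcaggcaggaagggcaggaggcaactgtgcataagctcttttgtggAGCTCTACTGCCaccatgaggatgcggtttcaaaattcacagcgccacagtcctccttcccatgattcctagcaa

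**Figure D4:**
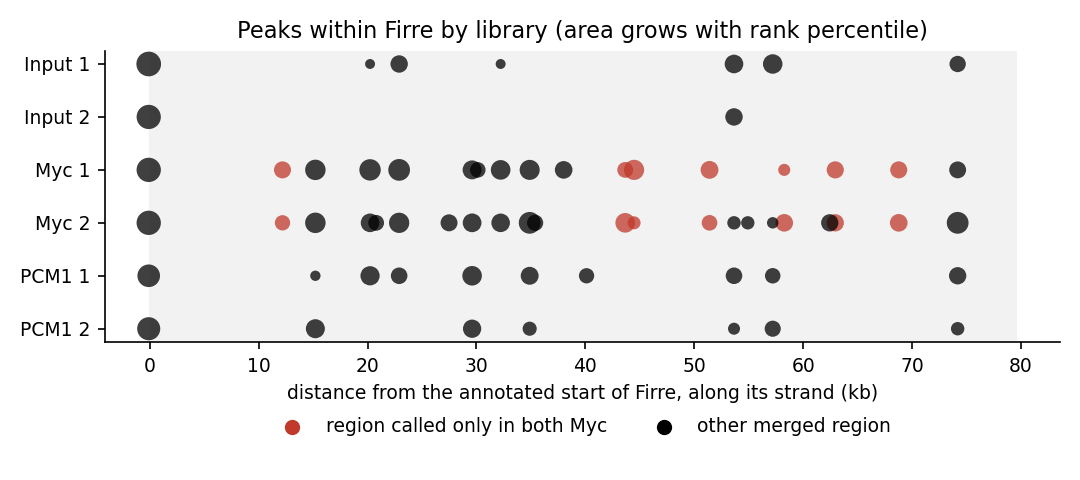
Peaks within Firre in each of the 6 libraries (rows) against the distance from its annotated start along the gene (horizontal axis, kb), with a point area that grows with the rank percentile and Myc-only regions in red. Between 2 and 10 regions are called in each Input and PCM1 library and 17 and 22 in Myc 1 and Myc 2, and the promoter at 0 kb is called in every library.

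Chromosome X as a whole had the highest share of Myc-only regions among the autosomes and X, at 94 of 3182 merged regions (2.95%), followed by chromosome 3 at 2.50%, with chromosome 11 lowest at 1.46%. On chromosome Y 2 of 27 regions were Myc-only. At 4933407K13Rik, the noncoding gene of the Dxz4 repeat on chromosome X, 1 of 10 merged regions was Myc-only, and Myc called 9 and 8 regions there, Input 1 and 1, and PCM1 6 and 4. Xist, the RNA gene of X inactivation, held 2 merged regions and no Myc-only region, and both were called in Myc 1 and Myc 2, 1 and 0 in Input, and 2 and 1 in PCM1. Peaks on chromosome X made up 2.01% and 1.97% of the Myc lists and 1.73 to 1.80% of the others, and chromosome Y had 11 to 19 peaks in every library. The sex of the hearts in each library was not given, and its part in the X chromosome values was not tested.

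By the nearest TSS, 2482 of 21938 protein-coding genes (11.3%) had a Myc-only region, beside 1611 (7.34%) for Input-only and 413 (1.88%) for PCM1-only regions. Of the 2482 genes, 2010 had 1 region and 15 had at least 5. Among the genes with most, Olfr1324 had 9, all in or beyond Firre and between 121 and 195 kb away. Pard3b, a cell polarity gene, Nav3, a neuron navigator gene, and Mecom, a transcription factor gene, had 7 each, of 55, 68 and 77 merged regions, and all of these lay more than 100 kb from the TSS. Ebf1, a transcription factor gene of B cells and stromal cells, had 6 of 72, Gm10260 6 of 71 and Gm10295 6 of 51. Mtnr1b, Hs3st1 and Dct had 5 each. Of the 10 genes, Gm10295 had 1 Input-only region and the other genes none, and none of the 10 had a PCM1-only region. Over all merged regions the shares were 1.08% Input-only and 0.254% PCM1-only, and these genes had 27 to 77 merged regions each. Few PCM1-only regions would be met at that share, and the genes were chosen for their Myc-only regions.

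The 20 gene lists of 12 genes each were set beside these figures. Because a gene with many open regions has more chances, each list is given as the share of the merged regions nearest to its genes, and 1.84% is the share over all merged regions. A region named at a gene is the one whose nearest TSS is that of the gene, at whatever distance. Fibroblast markers had the highest share, with 13 Myc-only among 244 merged regions (5.33%) at 8 of the 12 genes. Input-only regions made up 4 of the 244 (1.64%) and PCM1-only none. Cardiomyocyte markers, by contrast, had 2 of 305 (0.656%), both nearest to Pln, with 3 Input-only and 4 PCM1-only regions. Skeletal muscle genes had 4 of 77 (5.19%), at Pax3 and Pax7, erythroid markers 1 of 28 (3.57%), at Tal1, Notch genes 8 of 288 (2.78%), AP-1 genes 5 of 184 (2.72%), endothelial and endocardial markers 8 of 317 (2.52%) and BMP and TGF-beta genes 8 of 352 (2.27%). The counts are small and the lists were chosen with results of these data known, so they describe and test nothing.

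**Figure D5:**
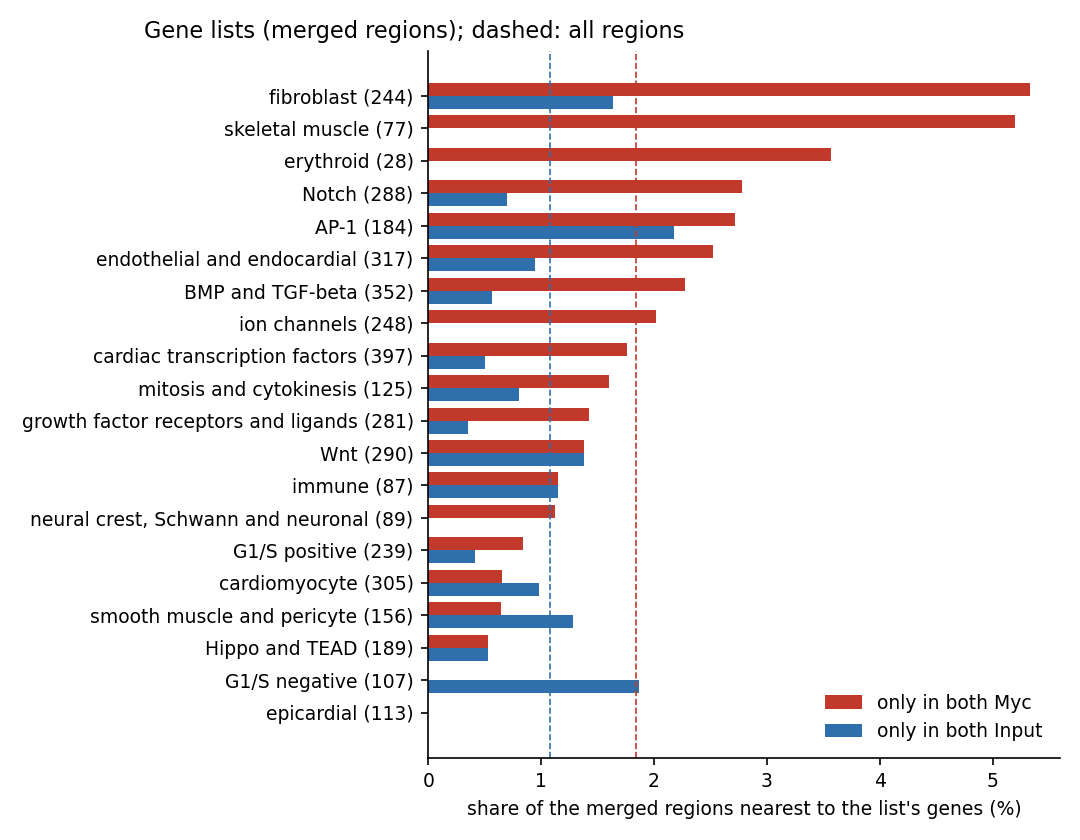
Share of the merged regions nearest to the genes of each list (horizontal axis, %) that were Myc-only (red) or Input-only (blue), with the number of merged regions of the list in brackets. Dashed lines give the shares over all merged regions (1.84% and 1.08%), and the fibroblast list has the longest red bar (5.33% of 244) while the cardiomyocyte list is at 0.656% of 305.

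Among the fibroblast markers, which code mainly for collagens and other matrix proteins, Fn1 for fibronectin had 3 Myc-only regions, Col1a2, Lum and Col3a1 had 2 each, and Postn, Tcf21, Col1a1 and Dcn had 1 each. Pdgfra, Vim, Mfap5 and Dpt had none. The Col1a2 regions were at rank percentiles of 35.7 and 38.7 (in an intron, 1580 bp downstream of the TSS) and of 41.7 and 23.4 (41.1 kb downstream). The Postn region, 3426 bp upstream of this gene of a matrix protein made by activated fibroblasts, was at 27.9 and 46.5. A region in the promoter of Lum, 593 bp downstream of the TSS, was at 3.29 in Myc 1 and 41.6 in Myc 2. All 13 regions lay between 0.593 and 269.6 kb from the TSS, 9 of them within 50 kb, and 6 of the 13 were below the 10th percentile in the weaker library.

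The calls over the whole fibroblast list were also set side by side. Of its 244 merged regions, Myc called 65.98% and 64.8%, Input 75% and 33.6%, and PCM1 33.6% and 32.0%, where over all merged regions these values were 61.8% and 62.5%, 76.6% and 43.0%, and 47.5% and 46.6%. For the 305 regions of the cardiomyocyte list the values were 45.6% and 46.2% in Myc, 77.0% and 43.3% in Input, and 50.8% and 46.6% in PCM1. The 2 Myc libraries were thus above the average of all regions for the fibroblast list and below it for the cardiomyocyte list. For the fibroblast list Input 1, the deepest library, was near the average (75% against 76.6%), and Input 2 and both PCM1 libraries were below it. In Myc the fibroblast list did not stand alone: the shares called were 71.97% and 65.7% for positive and 67.3% and 71.03% for negative regulators of the G1/S step, 67.4% and 67.7% for Notch genes, 67.3% and 65.4% for smooth muscle and pericyte markers, and 65.3% in both for ion channels. For these lists PCM1 called 45.5 to 60.7%, beside 33.6% and 31.97% for the fibroblast list. Low PCM1 shares were also found for the immune list, at 34.5% and 37.9%, and the Wnt list, at 38.3% and 39.3%. In Input 2 the immune and Wnt lists were at 32.2% and 34.8%, beside 33.6% for the fibroblast list. The part of cell composition in these values was not tested. Without Input 1, 20.7% of the fibroblast regions were Myc-only beside 7.11% of all merged regions, and 2.76% of the cardiomyocyte regions. Across the other settings in which both Myc libraries were kept, the fibroblast share was 4.51 to 5.74% and the cardiomyocyte share 0.505 to 0.987%. Without Myc 1 the fibroblast share was 11.7% and the cardiomyocyte share 4.14%, beside 7.75% of all merged regions, and without Myc 2 they were 14.6% and 5.76%, beside 7.78%, so that both lists were then nearer to all regions in proportion.

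Sequences at regions nearest to listed genes are given for Postn and Pln, as a fibroblast and a cardiomyocyte marker, and for Sox17, Kdr, Pax3 and Jag1, which have a searched word near the summit. All 6 were chosen after their values were seen. Each line is 150 bases of the plus strand around the summit, in which the capitals are a GATA word at Pln, a MEF2 word at Sox17, CTCF words at Kdr and Pax3, and an AP-1 word at Jag1.
Postn, chr3:54357589-54357832: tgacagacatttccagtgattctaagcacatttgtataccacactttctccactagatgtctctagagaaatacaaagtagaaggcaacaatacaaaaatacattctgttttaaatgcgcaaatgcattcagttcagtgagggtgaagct
Pln, chr10:53329321-53329631: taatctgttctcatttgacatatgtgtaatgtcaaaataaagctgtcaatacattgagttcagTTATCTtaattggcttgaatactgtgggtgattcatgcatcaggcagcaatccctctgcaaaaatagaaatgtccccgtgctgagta
Sox17, chr1:4550030-4550353: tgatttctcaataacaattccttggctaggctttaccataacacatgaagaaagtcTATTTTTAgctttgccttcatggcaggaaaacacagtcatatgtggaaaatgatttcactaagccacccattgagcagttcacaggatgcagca
Kdr, chr5:75918168-75918457: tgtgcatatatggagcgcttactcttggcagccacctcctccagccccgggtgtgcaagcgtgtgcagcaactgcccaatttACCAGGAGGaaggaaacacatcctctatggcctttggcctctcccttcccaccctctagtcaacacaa
Pax3, chr1:77896297-77896725: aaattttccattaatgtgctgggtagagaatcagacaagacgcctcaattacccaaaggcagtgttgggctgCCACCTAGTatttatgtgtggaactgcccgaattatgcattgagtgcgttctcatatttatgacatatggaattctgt
Jag1, chr2:137282513-137282918: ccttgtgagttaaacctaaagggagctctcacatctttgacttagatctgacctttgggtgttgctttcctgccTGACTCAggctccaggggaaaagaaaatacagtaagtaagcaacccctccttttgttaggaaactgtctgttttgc

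The Pln region, 8209 bp upstream of the TSS of phospholamban, an inhibitor of the sarcoplasmic calcium pump, had rank percentiles of 33.1 and 52.9 with pileups of 36 and 46. Sox17, an endothelial transcription factor gene, had 3 Myc-only regions between 19.5 and 52.8 kb upstream, of which the farthest was the strongest at 51.0 and 31.6. Kdr, the VEGF receptor gene of endothelial cells, had 2, at 60.1 and 81.1 kb downstream of the TSS, with 24.1 and 41.9 for the nearer. A region more than 500 kb from the TSS of Cdh5 was the strongest of the endothelial list at 62.5 and 47.2. Pax3, a factor gene of muscle and neural crest, had 3, of which 1 lay 300.7 kb downstream at 48.1 and 50.7, and Pax7 had 1 at its promoter at 8.12 and 11.9. Jag1, a Notch ligand gene, had 4 regions, all between 166 and 492 kb upstream, and Hes1, a Notch target, had 2.

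With 8 of 352 merged regions (2.27%), beside 1.84% over all regions, 7 of 12 genes of the BMP and TGF-beta list had a Myc-only region. The strongest was in an exon of the Tgfbr2 gene model, 87.3 kb from the TSS of this TGF-beta receptor gene, at 53.1 and 41.5, and the others were at Bmp7, Bmpr2, Tgfb1, Bmpr1a, Bmp10 and Bmp5. Among 12 cardiac transcription factor genes 6 had a region, with 7 of 397 merged regions (1.76%), near the share over all regions. These were Gata6, with rank percentiles of 29.6 and 29.8 at its stronger region, Mef2a (26.8 and 31.6), Mef2c (22.5 and 29.3), Hand1, Tbx5 and Isl1. Ion channel genes had 5 of 248 (2.02%), among them regions nearest to Kcnj2, Kcnj3 and Kcnd3. The strongest of each lay 471.7 kb and 175.9 kb downstream and 163.4 kb upstream of the TSS. No ion channel gene had a Myc-only region within 50 kb. In the AP-1 list, Fosl2 had a region 620 bp downstream of its TSS at 51.9 and 54.1, with pileups of 80 and 84, and Fos, Jdp2 and Jun had 1 each.

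The remaining lists were below the share over all regions. Mitosis and cytokinesis genes had 2 of 125 regions (1.60%), both nearest to Mki67 and more than 50 kb from its TSS. Positive regulators of the G1/S step had 2 of 239 (0.837%), at Ccne1 and Ccnd1, and negative regulators 0 of 107. Growth factor receptors and ligands had 4 of 281 (1.42%), nearest to Erbb4, Fgf9, Fgfr1 and Nrg1. The regions lay 31.0 and 49.9 kb upstream of the TSS of Erbb4 and Fgfr1. For Fgf9 and Nrg1 they lay 312.7 and 674.2 kb downstream. Wnt genes had 4 of 290 (1.38%), at Dkk2, Fzd7 and Wnt5a. Hippo and TEAD genes had 1 of 189 (0.529%), at Tead1, smooth muscle and pericyte markers 1 of 156 (0.641%), at Myh11, and epicardial markers 0 of 113. Immune markers had 1 of 87 at Cd3e and neural crest, Schwann and neuronal markers 1 of 89 at Foxd3. Where a list had no Myc-only region, none was detectable by this rule at this depth.

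The loci of the alleles carried by the Myc hearts did not have a higher share of Myc-only regions than the genome as a whole. Nor did the native Sun1 gene, which is not the site of either allele. Within 1 Mb of the native Sun1 gene 5 of 278 merged regions were Myc-only (1.80%). Within 1 Mb of Gt(ROSA)26Sor, where the tagged Sun1 was inserted, it was 1 of 185 (0.541%), and within 1 Mb of Nkx2-5, where Cre was inserted, 3 of 319 (0.940%). None lay inside these genes, which held 14, 1 and 2 merged regions.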

How the data were processed

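Omni-ATAC-Seq peak lists of 6 libraries from P1 mouse hearts were used, 2 each of Input, Myc and PCM1. The authors trimmed the reads, mapped them to mm10 with Bowtie2 2.3.3.1, marked duplicates with Picard 2.2.1, removed blacklisted regions with bedtools 2.7.1, corrected alignments for the Tn5 offset and ran MACS2 2.1.0.20160309 on each library, at a q-value threshold of 0.05. The fold enrichment is the authors' ratio of summit pileup to local background, with a small constant added to both. The deposited −log10 p-values and −log10 q-values are those of the summit. Read counts were not used here.

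Intervals were merged with bedtools 2.31.1 (Python 3.11.15). Pileup and background were solved from fold and p-value, and the most frequent background stands for depth. Genes are those of GENCODE M21, and tRNA genes and sequence those of RefSeq GRCm38.p6. Words were matched in 300 bp around the summit of highest rank, and Firre windows aligned with blastn 2.17.0 at an E-value limit of 1e-05. The functions were tested on simulated data.

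No test was run, since the peak calls chose the regions, each group has 2 libraries and regions are not replicates. The regions, gene lists and words were chosen with earlier results of these data known. Those named are the 10 regions of highest rank percentile in the weaker Myc library, the 8 highest within 1 kb of a TSS, the 10 genes nearest to the most regions, and up to 4 genes for each list. Further genes of a list, the tRNA genes, Firre, 4933407K13Rik, Xist and the sequences beyond the first 10 regions were chosen after their values were seen. Alternatives were a q-value threshold of 0.01, equal numbers of peaks, merging within 200 bp, 50% reciprocal overlap, other distances and windows, and each library left out in turn. Items withheld from this text are not reported here.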

Additional observations from a re-analysis of the deposited data

How the results depend on the processing

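No paired analysis was possible because the results come from no test, and replicate numbers did not link libraries across groups. The number of Myc-only regions was 3132 also at a q-value threshold of 0.01, 3024 with merging within 200 bp, 2754 with 50% reciprocal overlap, 2321 with equal numbers of peaks and 3038 without chromosome X (a setting chosen after seeing the data). With 1 library left out it ranged from 3389 to 12545, and the highest values came without Input 1 (10776), Myc 1 (12481) or Myc 2 (12545), since the rule then needs fewer calls or no longer counts the deepest list. Genes with a Myc-only region nearest numbered 1532 within 50 kb, and 2637 to 6780 with 1 library left out.

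The median rank percentile in the weaker Myc library, 14.3 in the report, was 16.8 with reciprocal overlap, 39.4 with equal numbers of peaks, and 13.8 to 20.7 with 1 library left out. The median distance was 46.0 kb with reciprocal overlap, 46.7 kb at a q-value threshold of 0.01, 47.9 kb with merging within 200 bp, 40.02 kb with equal numbers of peaks, 17.3 kb to the TSS of any annotated gene, and 45.4 to 49.1 kb with 1 library left out. The share within 1 kb of a TSS was 2.31% with merging within 200 bp, 5.24% for all annotated genes, 6.67% within 3 kb, and 2.28 to 3.47% with 1 library left out. In each of these settings the share was lower than that of all merged regions and the distance longer. The median GC content was 44.3% with merging or reciprocal overlap and 44.7 to 46.0% with 1 library left out.

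The CTCF share was 6.39% in 200 bp windows, 11.1% with equal numbers of peaks, and 4.98 to 7.82% with 1 library left out. Its direction against all merged regions turned, to below them, without Myc 1 (4.98% against 5.49%) or Myc 2 (5.28% against 5.53%). The MEF2 share was 5.24% in 200 bp windows and 5.84 to 7.61% with 1 library left out. The share of regions at or above the calling limit of all 4 other libraries was 98.4% with the stronger Myc pileup and 82.0% with the local background scaled. The causes of these changes were not tested. Of 132 alternative values, 77 stayed within the spread between the Myc libraries, the 95% interval or 1.5 times the count, and 55 moved beyond it. The spread is the SD of the Myc 1 and Myc 2 values over the same selected regions. The 95% interval is a binomial one that counts regions as if they were independent. Neither measures variation between hearts, so the tally is no measure of how stable the results are. Depth limits what an absent peak can mean, and the 2 libraries of a group give no measure of the spread between hearts.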
